A study of Mus musculus with 12 samples.

Results

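The 9 genes described here are 6 matrix metalloproteases (MMPs), Mmp8, Mmp9, Mmp12, Mmp13, Mmp14 and Mmp19, and 3 tissue inhibitors of metalloproteases (TIMPs), Timp1, Timp2 and Timp3. They were taken by gene symbol from the 23997 genes of the deposited tables. Earlier results of these data were known when the set was chosen. Counts of its genes called, set beside the share over all genes, are therefore description only. RNA-seq measured the transcripts of bone marrow-derived macrophages (BMDMs), which are macrophages grown from mouse marrow in culture, in 12 libraries that formed 4 groups of 3. The groups were untreated wild-type (WT) BMDMs, untreated Pim1-/- BMDMs, and WT and Pim1-/- BMDMs given LPS, a bacterial cell wall component that activates Toll-like receptor 4, at 100 ng/ml for 4 h. All cells came from male C57BL/6 mice aged 8 to 10 weeks, and were grown in human macrophage colony-stimulating factor at 10 ng/ml for 7 days, so every group shared strain, sex and growth factor. The Pim1-/- mice were made with CRISPR/Cas9, and carry a large deletion (exons I to V) of Pim1, a gene for a serine/threonine kinase, in all cells of the animal. The labels number 3 replicates in each group and do not say whether these came from separate mice or cultures, so the p-values below measure only the spread between these libraries.

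MMPs are zinc-dependent proteases that are made as inactive proforms and cut proteins of the extracellular matrix, as well as cytokines and other secreted proteins. Mmp8 and Mmp13 are collagenases, Mmp9 is a gelatinase, Mmp12 is the macrophage elastase, Mmp14 is a membrane-bound protease that also activates other MMPs, and Mmp19 is a secreted protease with basement membrane substrates. TIMPs bind the active site of MMPs and block it, and in macrophages inflammatory stimuli are known to change the balance between proteases and inhibitors.

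Values are FPKM, that is, fragments per kilobase of transcript, scaled to the number of mapped fragments, a level per transcript length. The low values fell on steps, which placed the worth of 1 fragment on 1 kb of transcript at 0.0231 to 0.0270 FPKM in untreated WT, 0.0220 to 0.0254 in untreated Pim1-/-, 0.0431 to 0.0481 in LPS-treated WT and 0.0312 to 0.0402 in LPS-treated Pim1-/- libraries, so low levels were read with less precision after LPS. Pim1, the targeted gene, was at 21.5 to 25.0 FPKM in untreated WT and 8.00 to 9.51 FPKM in untreated Pim1-/- libraries, and at 630 to 665 against 205 to 236 FPKM after LPS. Pim1 transcript was thus lower in every Pim1-/- library than in every WT library of the same treatment, at 38.1% and 33.9% of the WT mean, and not absent. All 10 macrophage markers looked at were above 1 FPKM in every group, with sums of 29131 to 31184, 15151 to 16118, 32200 to 32749 and 17033 to 18901 FPKM in untreated WT, untreated Pim1-/-, LPS-treated WT and LPS-treated Pim1-/- libraries. Most of each sum was Lyz2, at means of 26302, 13297, 26785 and 13680 FPKM in the same order. By the rule given below, 3 of the 10 were called lower in Pim1-/- BMDMs without LPS and 3 after LPS, and 0 higher. Over all genes tested 3.37% and 5.15% were called lower. In a bulk library, fewer cells of a type and less RNA per cell cannot be told apart.

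Coordinates are from GENCODE M21 on GRCm38. Mmp13 (chr9:7272514-7283331), Mmp12 (chr9:7344381-7369499) and Mmp8 (chr9:7558456-7568485) lie on the forward strand of 1 MMP gene cluster. Mmp14 (chr14:54431612-54445364), Mmp19 (chr10:128790910-128800824), Mmp9 (chr2:164940780-164955850), Timp1 (chrX:20870166-20874735) and Timp3 (chr10:86300372-86349506) are on the forward strand and Timp2 (chr11:118301069-118355740) on the reverse strand. Some of these genes share bases with a gene on the opposite strand: the last 789 bases of Mmp19 overlap exons of Tmem198b, Timp3 shares 1733 exonic bases with Syn3, and Timp1 lies inside Syn1 without exonic overlap. The strand setting of the counting is not given in the sources used here, so the values of Mmp19 and Timp3 may hold fragments of these partners.

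The 250 bases before the transcription starts of Mmp13 and Mmp12 are printed here because these genes had the highest MMP levels after LPS in Pim1-/- BMDMs and moved in opposite directions between the genotypes. The sequences are RefSeq's for GRCm38.p6, 5' to 3' on the forward strand, with the only match to the AP-1 letters TGANTCA in capitals. The Mmp13 window is chr9:7272264-7272513. The Mmp12 window is chr9:7347124-7347373, before the second of 2 annotated starts and within the Mmp12 gene.
Mmp13: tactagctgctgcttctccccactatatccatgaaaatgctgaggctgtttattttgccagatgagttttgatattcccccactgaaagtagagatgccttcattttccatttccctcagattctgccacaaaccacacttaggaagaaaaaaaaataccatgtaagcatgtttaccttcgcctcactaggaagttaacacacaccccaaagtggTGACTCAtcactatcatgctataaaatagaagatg
Mmp12: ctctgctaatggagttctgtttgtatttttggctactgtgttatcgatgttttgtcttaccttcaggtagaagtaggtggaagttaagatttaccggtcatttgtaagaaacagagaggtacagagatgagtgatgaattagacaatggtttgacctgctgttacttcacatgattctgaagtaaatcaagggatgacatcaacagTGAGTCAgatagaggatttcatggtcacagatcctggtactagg
In the Mmp13 window the match lay 35 to 29 bases before the start and was followed by TATAAA 16 to 11 bases before the start. In the Mmp12 window the match lay 44 to 38 bases before the start. The window before the first Mmp12 start held no such match and held 1 match to the NF-kB motif, 129 to 120 bases before the start. RefSeq windows were found for 7 of the 9 genes, all but Mmp9 and Mmp19, and the windows of Mmp8, Mmp14, Timp1, Timp2 and Timp3 held no match to any of these motifs on either strand. Of 32851 windows of the same length over all genes, 6.75% held the AP-1 letters, 12.4% TATAAA and 7.25% the NF-kB motif. Of the 10336 windows of genes that reached 1 FPKM in at least 3 libraries, 4.43%, 6.22% and 8.83% did. A match describes letters only.

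The order of the levels differed between the groups. In untreated WT BMDMs Timp2 stood highest (89.6 ± 1.37 FPKM, SD, n = 3), followed by Mmp12, Mmp19 and Timp1, and the others were under 2 FPKM. In untreated Pim1-/- BMDMs Mmp12 (86.7 ± 9.0 FPKM, SD, n = 3) stood above Timp2 (38.8 ± 2.13). After LPS, Mmp13 was the highest of the 9 in both genotypes, above 99.7% of all genes in WT and above 99.0% in Pim1-/- BMDMs. Mmp14 then followed in WT, and Mmp12 in Pim1-/- BMDMs. Neighbours in the order did not overlap between libraries except Mmp14 and Mmp8 in untreated WT, Mmp13 and Mmp14 in untreated Pim1-/-, and Mmp9 and Timp3 in LPS-treated Pim1-/- BMDMs. Mmp9 and Timp3 stayed below 1 FPKM in all 12 libraries.

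**Figure D1:**
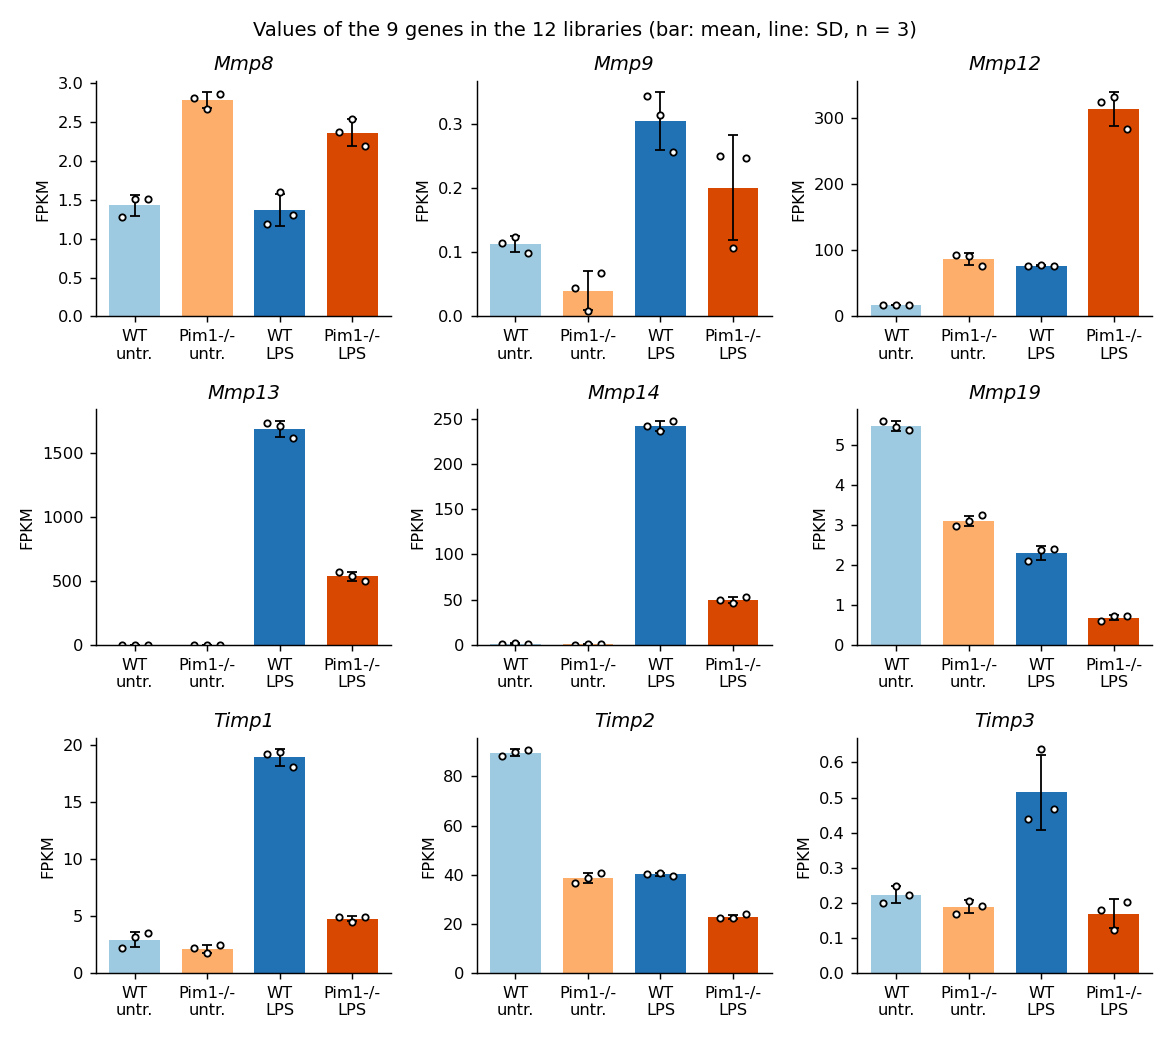
FPKM (vertical axes, each starting at 0) of the 9 genes in WT and Pim1-/- BMDMs, untreated (untr.) or given LPS for 4 h, with points for the 3 libraries of a group, bars for the mean and lines for the SD. Mmp13 and Mmp14 are near 0 without LPS and reach 1687 and 241.9 FPKM in LPS-treated WT BMDMs, while Mmp12 and Mmp8 are the genes with higher bars in Pim1-/- than in WT BMDMs at both treatments.

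Differences were tested with limma on log2(FPKM + 1), over the 10581 genes that reached 1 FPKM in at least 3 libraries, with Benjamini-Hochberg adjustment over all of them. This scale understates the change of genes at low levels, and can for that reason overstate or understate a difference between 2 responses. A gene was called when it differed more than 2-fold with p under 0.05 and an adjusted p under 0.1, and 7 of the 9 genes entered the test, all but Mmp9 and Timp3. In untreated BMDMs 2 of the 7 were called between the genotypes, Mmp12 higher and Timp2 lower in Pim1-/-, where 7.78% of all genes tested were called (4.40% higher and 3.37% lower). After LPS 4 of the 7 were called, Mmp12 higher and Mmp13, Mmp14 and Timp1 lower in Pim1-/-, against 8.66% of all genes, 3.51% higher and 5.15% lower. The median difference of the 7 was -0.31 without LPS and -0.97 after LPS on the log2 scale, beside -0.05 and -0.03 over all genes tested. The 3 libraries of a genotype did not overlap those of the other for 5 of the 7 genes without LPS and for 7 of the 7 after LPS, where 78.4% and 77.5% of all genes tested did not overlap, so that separation alone was common in these data. With the adjusted p alone and no fold threshold 7 of 7 passed at each treatment, against 78.8% and 80.9% of all genes tested. LPS raised Mmp12, Mmp13, Mmp14 and Timp1 and lowered Timp2 in WT BMDMs, 5 of 7 called against 34.8% of all genes (20.1% higher, 14.7% lower). In Pim1-/- BMDMs LPS raised Mmp12, Mmp13 and Mmp14 and lowered Mmp19, 4 of 7 called against 25.0% of all genes (14.6% higher, 10.4% lower). LPS-treated and untreated libraries did not overlap for 6 of 7 genes in WT and 7 of 7 in Pim1-/- BMDMs, against 90.4% and 83.8% of all genes, and with the adjusted p alone 6 and 7 of 7 passed, against 91.2% and 87.2%. Mmp13 was under 1 FPKM in every untreated library, and entered the test only through its LPS-treated libraries. Its LPS calls, counted here, are thus not independent of the filter. Among the listed genes named below, the same holds for Mmp10, Mmp25, Serpinb2, Lcn2, Vcan and Adamts4.

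**Figure D2:**
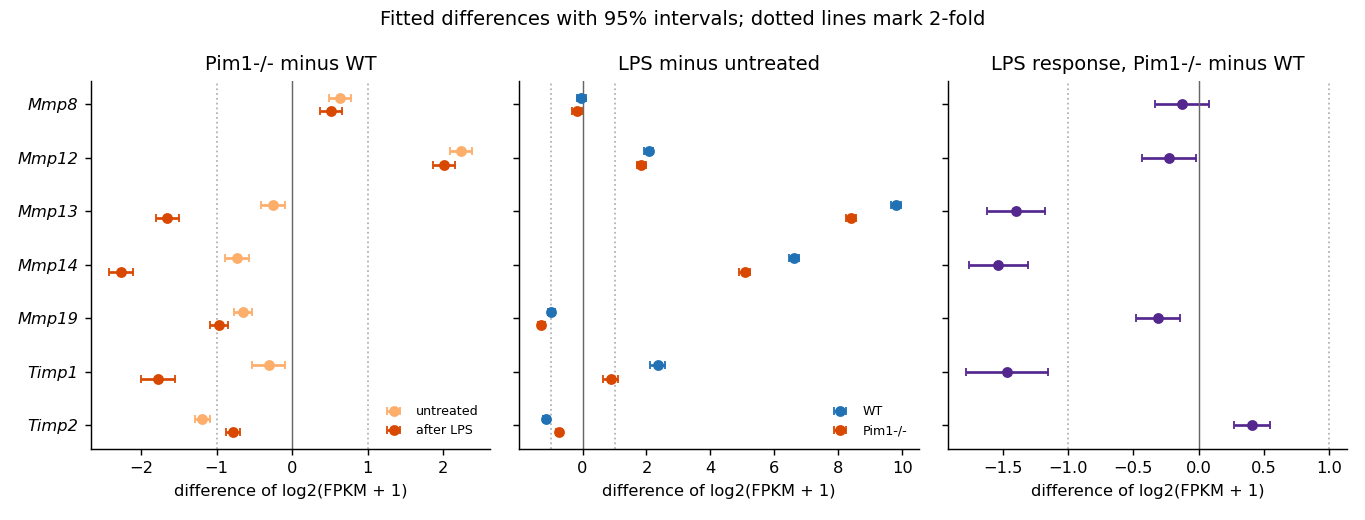
Fitted differences of log2(FPKM + 1) (horizontal axes) for the 7 genes tested, with points for the limma estimates, bars for 95% intervals and dotted lines at 2-fold, for Pim1-/- minus WT (left), LPS minus untreated (middle) and the LPS response of Pim1-/- minus that of WT (right). Mmp12 lies near 2 in both genotype comparisons, and Mmp13, Mmp14 and Timp1 lie left of the line at 2-fold after LPS and in the right panel.

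Mmp13, a collagenase that cuts fibrillar collagens, was at 0.992, 0.758 and 0.944 FPKM in untreated WT and at 0.614, 0.764 and 0.412 FPKM in untreated Pim1-/- libraries. After LPS it was at 1735, 1710 and 1616 FPKM in WT and at 567, 542 and 499 FPKM in Pim1-/- libraries. Every LPS-treated library stood far above every untreated one, the genotypes overlapped without LPS, and after LPS all Pim1-/- libraries stood below all WT libraries. The LPS-treated mean was 1879-fold the untreated mean in WT and 898-fold in Pim1-/- BMDMs (log2 differences 9.80 ± 0.07 and 8.40 ± 0.07, SE, limma adjusted p = 9.89e-22 and 5.82e-21). The untreated levels correspond to about 45 to 102 fragments a library, so these ratios carry the counting error of small numbers. After LPS the Pim1-/- mean was 31.8% of the WT mean (log2 difference -1.65 ± 0.07, SE, limma adjusted p = 1.68e-11). Without LPS the difference was -0.25 ± 0.07 (SE, limma adjusted p = 0.00561) and was not called.

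Mmp8, the collagenase known from neutrophil granules, was at 1.28, 1.51 and 1.51 FPKM in untreated WT and at 2.81, 2.67 and 2.86 FPKM in untreated Pim1-/- libraries. After LPS Mmp8 was at 1.19, 1.60 and 1.31 FPKM in WT and at 2.37, 2.54 and 2.19 FPKM in Pim1-/- libraries. All Pim1-/- libraries stood above all WT libraries of the same treatment, at 1.94-fold of the WT mean without LPS and 1.73-fold after LPS. The log2 differences of 0.64 ± 0.07 and 0.51 ± 0.07 (SE, limma adjusted p = 6.32e-07 and 6.51e-06) were under the 2-fold threshold. LPS and untreated WT libraries overlapped for Mmp8, and the fitted LPS difference of -0.04 (95% interval -0.19 to 0.11; limma adjusted p = 0.576) turned to 0.29 under quantile normalization and to 0.01 without replicate 1 of LPS-treated WT. Of the 10 neutrophil markers looked at, 9 were in the tables, and their summed level was 1.64 to 1.99 FPKM in untreated WT, 3.28 to 4.29 in untreated Pim1-/-, 6.07 to 8.31 in LPS-treated WT and 3.65 to 6.16 in LPS-treated Pim1-/- libraries. Retnlg was at 0 in all groups, 7 or 8 of the 9 had means under 1 FPKM, and the sum was higher in Pim1-/- than in WT without LPS but not after LPS. Without LPS the sum was mostly S100a8, at means of 1.29 FPKM in WT and 3.41 in Pim1-/- BMDMs, while S100a9 was at 0.345 and 0.347 FPKM. The part of such cells in the Mmp8 levels was not tested.

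Mmp14, the membrane-bound protease that activates proforms of other MMPs at the cell surface, was at 1.19, 1.80 and 1.54 FPKM in untreated WT and at 0.453, 0.519 and 0.548 FPKM in untreated Pim1-/- libraries. After LPS Mmp14 was at 242, 237 and 248 FPKM in WT and at 49.2, 46.2 and 53.5 FPKM in Pim1-/- libraries. The genotypes did not overlap at either treatment, with Pim1-/- lower each time, and LPS raised Mmp14 in both. The Pim1-/- mean was 33.5% of the WT mean without LPS and 20.5% after LPS. The log2 difference after LPS was -2.27 ± 0.08 (SE, limma adjusted p = 6.2e-13). Without LPS it was -0.73 ± 0.08 (SE, limma adjusted p = 3.57e-07), not called, and -1.39 and called with a pseudocount of 0.1 FPKM. LPS raised Mmp14 160-fold in WT and 97.9-fold in Pim1-/- BMDMs (log2 differences 6.60 and 5.07; limma adjusted p = 1e-19 and 3.32e-18).

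Mmp12, the macrophage elastase, was at 17.4, 17.0 and 18.1 FPKM in untreated WT and at 92.8, 91.0 and 76.4 FPKM in untreated Pim1-/- libraries. After LPS Mmp12 was at 76.3, 77.3 and 76.5 FPKM in WT and at 323, 332 and 284 FPKM in Pim1-/- libraries. All Pim1-/- libraries stood above all WT libraries of the same treatment, and the untreated Pim1-/- range of 76.4 to 92.8 FPKM met the range of LPS-treated WT libraries, 76.3 to 77.3 FPKM. The Pim1-/- mean was 4.95-fold the WT mean without LPS (log2 difference 2.24 ± 0.07, SE, limma adjusted p = 1.72e-13) and 4.08-fold after LPS (2.01 ± 0.07, SE, limma adjusted p = 7.79e-13). Mmp12 was the only gene of the 7 tested that was called higher in Pim1-/- BMDMs. LPS raised it 4.38-fold in WT and 3.61-fold in Pim1-/- BMDMs (log2 differences 2.07 and 1.84; limma adjusted p = 6.04e-14 and 4.1e-13). The call in Pim1-/- BMDMs was lost under quantile normalization, at 0.99. Replicate 3 was the lowest Pim1-/- library for Mmp12 at each treatment.

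The summed level of 10 cell cycle genes moved with the genotype as Mmp12 did, with sums of 128 to 141 FPKM in untreated WT, 786 to 871 in untreated Pim1-/-, 350 to 354 in LPS-treated WT and 664 to 750 in LPS-treated Pim1-/- libraries. All 10 were called higher in untreated Pim1-/- BMDMs and 8 of 10 after LPS, against 4.40% and 3.51% of all genes tested. Pcna, a replication clamp gene, was the highest of the 10 in every group, with means of 109.9, 433.5, 313 and 546 FPKM in the same order. Top2a, a topoisomerase gene of dividing cells, was at means of 2.96, 66.9, 1.76 and 34.1 FPKM in untreated WT, untreated Pim1-/-, LPS-treated WT and LPS-treated Pim1-/- BMDMs, so that it did not follow Mmp12 across LPS. Mki67 was at 28.6 FPKM in LPS-treated WT and 26.2 in LPS-treated Pim1-/- BMDMs. The part of dividing cells in the Mmp12 levels was not tested.

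Mmp19 was at 5.60, 5.43 and 5.36 FPKM in untreated WT and at 2.98, 3.10 and 3.23 FPKM in untreated Pim1-/- libraries. After LPS Mmp19 was at 2.09, 2.38 and 2.40 FPKM in WT and at 0.600, 0.723 and 0.729 FPKM in Pim1-/- libraries. The 4 groups did not overlap, and the gene was lower in Pim1-/- than in WT and lower after LPS than without it. After LPS the Pim1-/- mean was 29.9% of the WT mean, while the log2(FPKM + 1) difference of -0.97 ± 0.06 (SE, limma adjusted p = 4.16e-10) fell just short of 2-fold. It passed 2-fold without replicate 1 of LPS-treated WT (-1.01), under quantile normalization (-1.09) and with a pseudocount of 0.1 FPKM (-1.61). LPS lowered Mmp19 in Pim1-/- BMDMs (log2 difference -1.29 ± 0.06, SE, limma adjusted p = 3.77e-12). In WT BMDMs the LPS difference was -0.98 ± 0.06 (SE, limma adjusted p = 9.58e-11), not called, and it was called without replicate 3 of LPS-treated WT, with a pseudocount of 0.1 FPKM (-1.22) and with equal column sums (-1.74). Tmem198b, which shares exonic bases with Mmp19 on the opposite strand, was at 1.46 to 11.3 FPKM and followed the same order of groups, and its part in the Mmp19 values was not tested.

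Mmp9, a gelatinase made by many inflammatory cells, was close to the limit of reading. It was at 0.115, 0.125 and 0.0992 FPKM in untreated WT and at 0.0438, 0.00837 and 0.0686 FPKM in untreated Pim1-/- libraries. After LPS Mmp9 was at 0.345, 0.315 and 0.256 FPKM in WT and at 0.251, 0.106 and 0.247 FPKM in Pim1-/- libraries. The WT libraries stood above the Pim1-/- libraries of the same treatment, and the LPS-treated above the untreated ones of the same genotype. These values correspond to about 12.8 to 14.9, 1.0 to 9.0, 16 to 24.0 and 7.9 to 24.1 fragments, in the order untreated WT, untreated Pim1-/-, LPS-treated WT and LPS-treated Pim1-/-, so Mmp9 was near 0 in these BMDMs and its differences rest on few fragments.

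Timp1, a secreted inhibitor known to be inducible, was at 2.21, 3.15 and 3.52 FPKM in untreated WT and at 2.23, 1.79 and 2.50 FPKM in untreated Pim1-/- libraries. After LPS Timp1 was at 19.3, 19.4 and 18.1 FPKM in WT and at 4.91, 4.54 and 4.95 FPKM in Pim1-/- libraries. The genotypes overlapped without LPS and stood apart after LPS, with Pim1-/- at 25.4% of the WT mean. The log2 difference was -0.31 ± 0.10 without LPS, not called, and -1.78 ± 0.10 after LPS (SE, limma adjusted p = 0.0135 and 4.31e-10). LPS raised Timp1 6.39-fold in WT BMDMs (log2 difference 2.35 ± 0.10, SE, limma adjusted p = 3.12e-12). In Pim1-/- BMDMs the LPS-treated mean was 2.21-fold the untreated mean, and the log2(FPKM + 1) difference of 0.88 ± 0.10 (SE, limma adjusted p = 1.03e-06) was under 2-fold, and over it under quantile normalization (1.06) and with a pseudocount of 0.1 FPKM (1.12). Syn1, which holds Timp1 within it, was at 0.177 to 0.929 FPKM.

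Timp2, an inhibitor that also takes part in the activation of pro-Mmp2 by Mmp14, was at 88.1, 89.9 and 90.8 FPKM in untreated WT and at 36.7, 38.6 and 40.9 FPKM in untreated Pim1-/- libraries. After LPS Timp2 was at 40.2, 40.9 and 39.5 FPKM in WT and at 22.5, 22.4 and 23.9 FPKM in Pim1-/- libraries. Pim1-/- libraries were lower at each treatment without overlap, and untreated Pim1-/- libraries overlapped with LPS-treated WT libraries. The Pim1-/- mean was 43.2% of the WT mean without LPS (log2 difference -1.19 ± 0.04, SE, limma adjusted p = 2.32e-12). After LPS it was 57.1% of the WT mean, and the log2 difference of -0.78 ± 0.04 (SE, limma adjusted p = 3.3e-10) was not called. LPS lowered Timp2 in WT BMDMs (-1.14 ± 0.04, SE, limma adjusted p = 6.41e-13), and the LPS difference of -0.73 ± 0.04 in Pim1-/- BMDMs (SE, limma adjusted p = 2.85e-10) passed 2-fold under quantile normalization (-1.24) and equal column sums (-1.39). Timp3, a matrix-bound inhibitor, was at 0.200, 0.248 and 0.223 FPKM in untreated WT and at 0.170, 0.206 and 0.193 FPKM in untreated Pim1-/- libraries. After LPS Timp3 was at 0.439, 0.638 and 0.469 FPKM in WT and at 0.18, 0.123 and 0.203 FPKM in Pim1-/- libraries. Only LPS-treated WT libraries stood apart for Timp3, at about 44.3 to 63.8 fragments, and Syn3, with which Timp3 shares exonic bases, stood apart in the same group, at 0.270 to 0.301 FPKM against 0.0811 to 0.148 FPKM in the other libraries. The part of Syn3 fragments in the Timp3 values was not tested.

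A list of 10 stromal markers was at low levels, and its sum was highest in LPS-treated WT and lowest in untreated Pim1-/- libraries. The group means of Mmp14 and Timp1 were also highest and lowest there, though untreated Timp1 libraries overlapped between the genotypes. The stromal sums were 4.68 to 5.56, 1.65 to 2.32, 13.8 to 14.5 and 4.40 to 5.15 FPKM in untreated WT, untreated Pim1-/-, LPS-treated WT and LPS-treated Pim1-/- libraries, so the groups between overlapped. Of these markers 5 of 10 entered the test, 0 were called between the genotypes without LPS and 1 was called lower in Pim1-/- after LPS. Over all genes tested 7.78% were called without LPS, and 5.15% were called lower after it. After LPS the growth factor receptor gene Pdgfrb led the list, at 7.10 FPKM on average in WT and 2.16 in Pim1-/- BMDMs. Col1a1, which encodes a chain of collagen I, stayed at or below 0.566 FPKM in every library. The part of stromal cells in the levels of Mmp13, Mmp14, Timp1 and Timp2 was not tested. Of 8 osteoclast markers 4 had means under 1 FPKM in each group, and the sums of all 8 were 95.2 to 97.7, 62.2 to 66.4, 119.6 to 122.0 and 73.9 to 79.8 FPKM in the same order. Most of these sums came from Atp6v0d2, a proton pump subunit gene, and Acp5, an acid phosphatase gene, which differed with LPS in opposite directions in WT BMDMs (means of 69.6 and 30.6 FPKM for Atp6v0d2, 3.13 and 79.5 for Acp5). Ctsk, which encodes cathepsin K, was at 6.57 FPKM in untreated WT and 7.33 in untreated Pim1-/- BMDMs. The other osteoclast markers tested were lower in untreated Pim1-/- BMDMs, Acp5, Atp6v0d2 and Nfatc1 (log2 differences -0.85, -0.63 and -0.61). Of the 4 tested 0 were called between the genotypes without LPS, where 7.78% of all genes were. After LPS 1 was called lower in Pim1-/- BMDMs, Acp5 (-1.115), where 5.15% of all genes were.

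The response to LPS differed between the genotypes for 3 of the 7 genes by the interaction term of the fit, with all 3 lower in Pim1-/- BMDMs, where 6.67% of all genes tested were called and 4.43% in that direction. With the adjusted p alone 6 of 7 passed, against 68.5% of all genes. The LPS response of Pim1-/- minus that of WT was -1.40 ± 0.10 for Mmp13, -1.54 ± 0.11 for Mmp14 and -1.47 ± 0.15 for Timp1 on the log2 scale (SE, limma adjusted p = 1.89e-08, 9.19e-09 and 5.4e-07). The call for Mmp14 was lost with a pseudocount of 0.1 FPKM, at -0.89. The pseudocount of 1 FPKM narrows the genotype gap at the low untreated levels of Mmp13 and Mmp14, and so widens their response differences. On plain FPKM means LPS raised Mmp13 1879-fold in WT and 898-fold in Pim1-/- BMDMs, and Mmp14 160-fold and 97.9-fold. For Mmp12 the difference of the responses was -0.23 ± 0.10 (SE, limma adjusted p = 0.0496), for Mmp19 -0.31 ± 0.08 (0.00336) and for Timp2 0.41 ± 0.06 (4.86e-05), none of them past 2-fold. For Mmp8 it was -0.13 (95% interval -0.34 to 0.08; limma adjusted p = 0.263). The median over the 7 genes was -0.31, beside 0.00 over all genes tested.

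**Figure D3:**
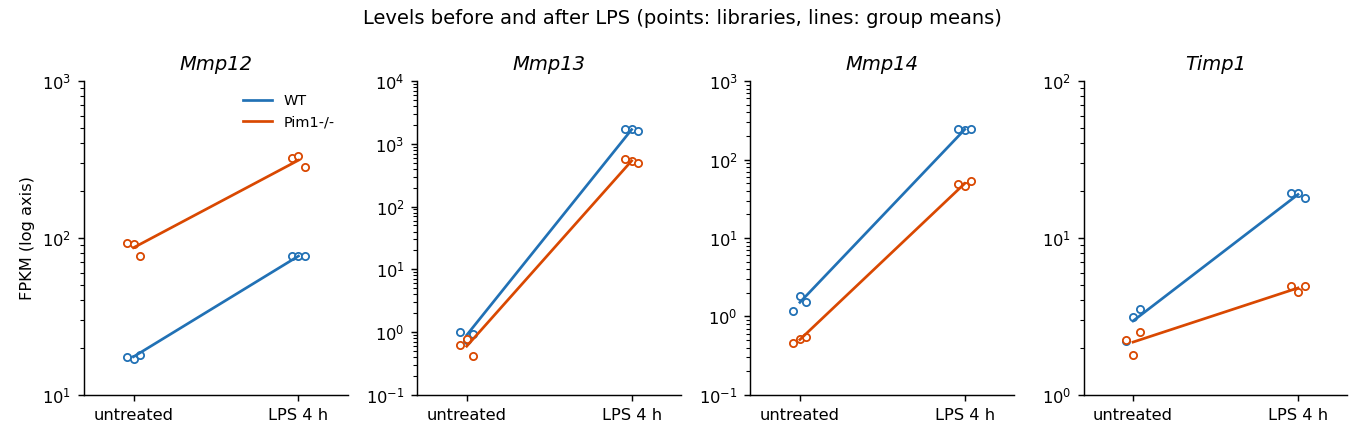
FPKM of Mmp12, Mmp13, Mmp14 and Timp1 (vertical axes, log scales that differ between panels) in untreated and LPS-treated BMDMs, with points for libraries and lines joining group means, WT in blue and Pim1-/- in red. The Mmp12 lines run nearly side by side with Pim1-/- above WT, and the Pim1-/- line of Timp1 rises from 2.171 to 4.802 FPKM while the WT line rises from 2.959 to 18.93 FPKM.

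The levels per length were summed over the 6 MMPs and over the 3 TIMPs in each library. The MMP sum was 26.9 ± 0.499 FPKM in untreated WT, 93.7 ± 8.91 in untreated Pim1-/-, 2009 ± 58.9 in LPS-treated WT and 902 ± 54.6 in LPS-treated Pim1-/- BMDMs (SD, n = 3). Mmp12 made up 65.0% of the MMP sum in untreated WT and 92.4% in untreated Pim1-/- BMDMs, and after LPS 3.82% and 34.7%. Mmp13 took 83.9% of the sum in LPS-treated WT and 59.4% in LPS-treated Pim1-/- BMDMs. The TIMP sum was 92.8 ± 2.07, 41.1 ± 2.31, 59.6 ± 1.47 and 27.9 ± 1.05 FPKM (SD, n = 3) in the same order of groups, and Timp2 made up 96.6%, 94.3%, 67.4% and 82.2% of it. The ratio of MMP sum to TIMP sum, which a single scaling factor per library leaves unchanged, was 0.290 ± 0.00409 in untreated WT and 2.29 ± 0.335 in untreated Pim1-/- BMDMs (SD, n = 3). It was not recomputed under quantile normalization, which can change it. After LPS the ratio was 33.7 ± 0.576 in WT and 32.4 ± 3.03 in Pim1-/- BMDMs (SD, n = 3). The ratios of the genotypes stood apart without LPS (0.286 to 0.294 against 1.91 to 2.55) and overlapped after LPS (33.3 to 34.4 against 28.9 to 34.1). These are sums of transcript levels, and the proteins and their activity were not measured here.

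**Figure D4:**
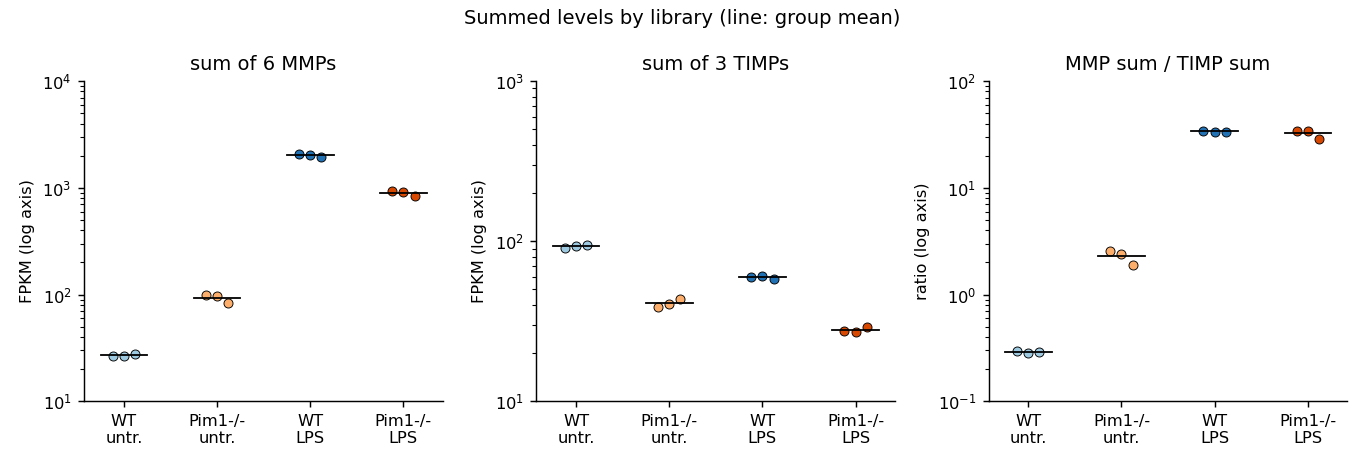
Summed FPKM of the 6 MMPs (left) and the 3 TIMPs (middle) and the ratio of these sums (right) in each library, on log axes, with points for the 3 libraries of a group and a line at the mean. The ratio is 0.2901 in untreated WT and 2.293 in untreated Pim1-/- BMDMs, and the groups given LPS lie together near 33.7 and 32.38.

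Mmp13, Mmp12 and Mmp8 belong to a cluster of 10 MMP genes that spans 427.1 kb, and they did not move alike. Mmp13 was lower and Mmp12 higher in LPS-treated Pim1-/- than in LPS-treated WT BMDMs, and their lower coordinates lie 71.9 kb apart. The stromelysin genes Mmp3 and Mmp10 stood at low levels. Mmp3 was at means of 0.0365 and 0.0155 FPKM in untreated WT and Pim1-/- BMDMs and at 0.956 and 0.12 FPKM after LPS, and it did not enter the test. Mmp10 was at means of 2.64 and 0.989 FPKM in LPS-treated WT and Pim1-/- BMDMs. Mmp10 was called higher after LPS in WT BMDMs (log2 difference 1.68 ± 0.07, SE, limma adjusted p = 2.61e-12), and in untreated Pim1-/- BMDMs it was listed at 0. Mmp27 was at means of 2.06, 1.08, 1.99 and 1.15 FPKM in untreated WT, untreated Pim1-/-, LPS-treated WT and LPS-treated Pim1-/- BMDMs. Mmp1a and Mmp7 were listed at 0 in all 12 libraries, Mmp20 was at 0 in 11, and Mmp1b, which shares 157 exonic bases with Mmp12, did not exceed 0.0584 FPKM.

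**Figure D5:**
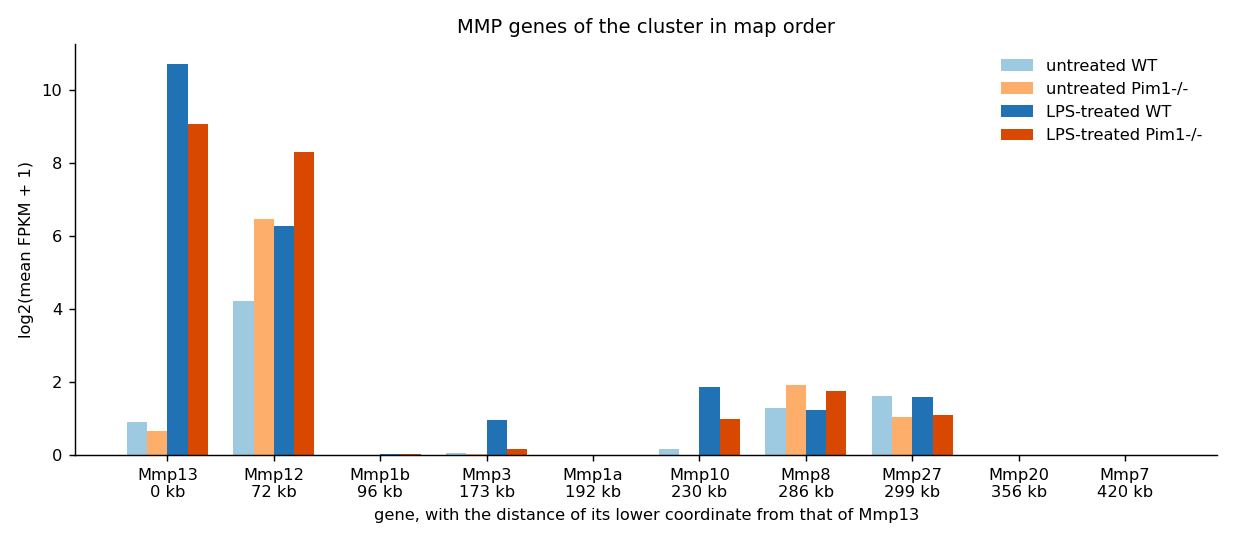
Mean levels, as log2(mean FPKM + 1) on the vertical axis, of the 10 MMP genes of the cluster in map order, with bars for the 4 groups and each gene's distance from Mmp13 in kb under its name. Mmp13 and Mmp12 carry the tall bars, with LPS-treated WT above LPS-treated Pim1-/- for Mmp13 (1687 against 535.9 FPKM) and the reverse for Mmp12 (76.71 against 312.9 FPKM).

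Of a list of 18 other MMP genes and Timp4 together, 3 entered the test. After LPS 1 of these was called lower in Pim1-/- BMDMs, Mmp25, a membrane-anchored MMP known from leukocytes, at 6.29 FPKM in WT and 0.827 in Pim1-/- BMDMs (log2 difference -2.00 ± 0.06, SE, limma adjusted p = 1.19e-13). Its LPS response was also lower in Pim1-/- BMDMs (-1.98 ± 0.08, SE, limma adjusted p = 2.7e-11). Mmp25 reached 1 FPKM only in LPS-treated WT libraries, so it entered the test through the group where it was high. Its calls are thus not independent of that filter. Over all genes tested 5.15% were called lower in Pim1-/- after LPS, and 4.43% for the response. Without LPS 0 of 3 were called between the genotypes, where 7.78% of all genes were. At an unadjusted p under 0.05 there were 2 of 3. The share of all genes at that threshold was not computed, and 78.8% had an adjusted p under 0.1.

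Proteases of the plasminogen system and proprotein convertases activate MMP proforms, and 9 of 13 such genes and their inhibitors entered the test. In untreated BMDMs 1 was called, where 7.78% of all genes tested were. This was Plau, the urokinase gene, higher in Pim1-/- (38.1 against 11.8 FPKM, log2 difference 1.61 ± 0.07, SE, limma adjusted p = 1.33e-11). After LPS 0 were called higher and 2 lower in Pim1-/- BMDMs, where 3.51% and 5.15% of all genes tested were. Of these Serpinb2, an inhibitor of plasminogen activators, differed by -1.44 ± 0.10 (SE, limma adjusted p = 2.14e-09). LPS raised 6 of 9 in WT and 6 of 9 in Pim1-/- BMDMs, against 20.1% and 14.6% of all genes tested, among them Plaur, the urokinase receptor gene, and Furin and Pcsk7, which encode proprotein convertases, and lowered Plau in Pim1-/- BMDMs (-1.50 ± 0.07, SE, limma adjusted p = 8.35e-12).

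Of 11 genes for other inhibitors, docking proteins and clearance receptors of MMPs, 6 entered the test. Lcn2, whose product binds Mmp9, was lower in Pim1-/- BMDMs after LPS (14.7 against 67.3 FPKM; log2 difference -2.12 ± 0.06, SE, limma adjusted p = 6.08e-14). Thbs1, which encodes thrombospondin 1, was lower in Pim1-/- BMDMs without and with LPS (-1.71 and -1.73; limma adjusted p = 6.17e-12 and 5.81e-12). No other gene of this list was called between the genotypes, and LPS raised 2 of 6 in each genotype, Cd44, a hyaluronan receptor gene, and Lcn2. Over all genes tested LPS raised 20.1% in WT and 14.6% in Pim1-/- BMDMs. Between the genotypes 3.37% of all genes tested were called lower in Pim1-/- without LPS and 5.15% after it. Of 13 genes for matrix substrates 5 entered the test, and after LPS 1 was called lower in Pim1-/- BMDMs, the versican gene Vcan (6.07 against 28.9 FPKM; -2.08 ± 0.06, SE, limma adjusted p = 8.29e-14). LPS raised Vcan and Spp1, the osteopontin gene, in both genotypes. Of 14 ADAM and ADAMTS proteases 7 entered the test, and Adam19 was called lower in untreated Pim1-/- BMDMs (-1.54 ± 0.05, SE, limma adjusted p = 1.04e-12). Adam19 reached 1 FPKM only in untreated WT libraries, so it entered the test through the group where it was high. Its calls are thus not independent of that filter. After LPS 0 of 7 were called between the genotypes, where 8.66% of all genes tested were. At an unadjusted p under 0.05 there were 6 of 7 after LPS. The share of all genes at that threshold was not computed, and 80.9% had an adjusted p under 0.1. LPS raised Adam17, which encodes the main TNF sheddase, and the aggrecanase gene Adamts4 in both genotypes, and lowered Adam19 in WT BMDMs. Among the genes of these lists reported here, the LPS response was called lower in Pim1-/- than in WT BMDMs for Mmp25, Serpinb2 (-1.37), Lcn2 (-2.00) and Vcan (-2.09), and higher for Adam19 (1.41). Adam19 means were 2.93 FPKM in untreated WT, 0.125 in LPS-treated WT, 0.35 in untreated Pim1-/- and 0.0271 in LPS-treated Pim1-/- BMDMs. Adam19 thus fell with LPS in both genotypes, and all but the first mean lie under the pseudocount of 1 FPKM, which compresses the Pim1-/- response. The untreated means of Mmp25, Serpinb2, Lcn2 and Vcan also lie under it in both genotypes. For Lcn2 these were 0.0980 FPKM in WT and 0.0114 in Pim1-/- BMDMs. On plain FPKM means the rise of Lcn2 with LPS was the larger in Pim1-/- BMDMs, from a level near 0. The direction of its response difference thus rests on the pseudocount. The median log2 difference between the genotypes after LPS was -0.88 for the 3 other MMP genes, -0.33 for the plasminogen and convertase list, -0.21 for inhibitors, docking and clearance, 0.06 for ADAM and ADAMTS proteases and -0.55 for matrix substrates, beside -0.03 over all genes tested.

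The genes most like each member were found by the root mean square distance between centred log2(FPKM + 1) profiles over the 12 libraries, among the 10581 genes tested. For Mmp13 the nearest was Il27 (0.23), with means of 1064 FPKM in LPS-treated WT and 480 FPKM in LPS-treated Pim1-/- BMDMs, followed by Ifi205 (0.36). The nearest to Mmp14 were Dusp2 (0.26) and Iigp1 (0.35), and to Timp1 Ier2 (0.14) and Ak4 (0.16). The nearest to Mmp12 were Mthfd2 (0.34) and Raet1d (0.40), and Mthfd2 was at means of 3.58, 29.4, 28.7 and 67.8 FPKM in untreated WT, untreated Pim1-/-, LPS-treated WT and LPS-treated Pim1-/- BMDMs. The nearest to Mmp8 were Praf2 (0.06) and Cep290 (0.07), to Mmp19 Cblb (0.09) and Tmem198b (0.12), and to Timp2 Ap2a2 (0.09) and Lsr (0.09). A small distance was easier to reach for members that varied little, since the members' own root mean square deviations ran from 0.30 for Mmp8 to 4.59 for Mmp13.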

How the data were processed

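RNA was sequenced from 12 libraries prepared with a stranded mRNA kit. Per the labels' processing notes, the authors used bcl2fastq 2.20.0.422, cutadapt 1.18, TopHat2 2.0.13 and Cuffdiff 2.2.1 with mouse build mm10, while the study's methods name a rat build (rn5) in the same place. The deposited values, 1 table of 23997 gene symbols a library, carry no unit and are read here as the FPKM that Cuffdiff writes. Such values depend on transcript models and on how Cuffdiff scales libraries, and the FPKM of a library summed to 452511 to 849323, more after LPS than without it. Fragment numbers were estimated from the steps of low values (75.0% to 87.0% of them within 0.1 of a whole multiple, where 20% would be by chance), with the longest transcript of each gene, and cover counting error only.

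The fit used limma 3.58.1 in R 4.3.3 with a mean-variance trend and 4 group means, and a pseudocount of 1 FPKM. Fold thresholds follow the study's methods, applied in both directions. Percentages and folds of means use FPKM without a pseudocount. All members are named, with the called genes of 5 pathway lists, at most 4 a list by mean FPKM, and the 2 nearest profiles. A gene of the plasminogen list is counted but not reported here. The members and lists were chosen with earlier results of these data known. The libraries of a group correlated at r = 0.9977 to 0.9989 across genes. Same-numbered libraries deviated together between genotypes without LPS (r = 0.33 to 0.46 over 3646 genes) and between treatments in Pim1-/- (0.43 to 0.68), but not in every pair after LPS (0.02 to 0.37) or in WT (-0.10 to 0.19). The main fit has no replicate block, and the fit with one is an alternative. Alternatives changed the pseudocount, the filter, the scaling, the groups fitted and the threshold, left out each library, and, added after the data were seen, set column sums equal. Only the fit was tested on simulated data, for the comparison of the genotypes after LPS.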

Additional observations from a re-analysis of the deposited data

Results flagged for a closer look

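The response to LPS differed between the genotypes for 3 of the 7 genes tested, by the interaction term of the fit and past 2-fold, where 6.67% of all genes tested were called and 4.43% in that direction. The response in Pim1-/- minus that in WT BMDMs was -1.40 for Mmp13, -1.54 for Mmp14 and -1.47 for Timp1 on the log2 scale. With a pseudocount of 0.1 FPKM the Mmp14 difference was -0.89, under 2-fold. In LPS-treated BMDMs all 3 Pim1-/- libraries were below all 3 WT libraries for each of these genes. On the scale of plain FPKM the LPS-treated mean was 1879-fold the untreated mean in WT and 898-fold in Pim1-/- BMDMs for Mmp13, 160-fold and 97.9-fold for Mmp14, and 6.39-fold and 2.21-fold for Timp1. The responses share no library, and each genotype's response was measured against its own untreated libraries.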

How the results depend on the processing

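Of 758 values of single genes recomputed under the alternatives, 727 kept their direction and side of the threshold, 26 passed it, 2 fell below it (Mmp12 after LPS in Pim1-/- BMDMs under quantile normalization, and the Mmp14 response with a pseudocount of 0.1) and 3 turned direction. The last are all the LPS difference of Mmp8, which was never called: 0.29 in WT and 0.03 in Pim1-/- BMDMs under quantile normalization, and 0.012 in WT without replicate 1 of LPS-treated WT (-0.111 to 0.012 over all left-out libraries). With no fold threshold the members called became 7 (genotypes, untreated), 7 (genotypes, LPS), 7 (LPS in Pim1-/-) and 6 (response), and the genes called 8333, 8565, 9645 (LPS in WT), 9222 and 7245. A pseudocount of 0.1 gave 1442 genes between the genotypes after LPS, against 916, and 1075 for the response, against 706. Equal column sums gave 4172 genes for LPS in Pim1-/- BMDMs, against 2649.

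Leaving out 1 library gave 2, 4 to 5, 5 to 6, 4 and 3 members called in the 5 comparisons, where the added gene was Mmp19 each time, and 791 to 861, 888 to 1005, 3664 to 3708, 2642 to 2669 and 692 to 723 genes. The replicate block gave 824 genes between untreated genotypes, against 823, and changed no member's call. Quantile normalization moved the median LPS difference of all genes by -0.18 in WT and -0.17 in Pim1-/- BMDMs, and equal column sums by -0.71 and -0.61, and moved the genotype difference after LPS by 0.17 and the response by 0.13. The split of higher to lower calls changed with scaling, for LPS in WT from 2130 to 1556 into 1653 to 1853 (quantile) and 1236 to 4079 (equal sums), for LPS in Pim1-/- from 1546 to 1103 into 1026 to 3146 (equal sums), for the genotypes after LPS from 371 to 545 into 610 to 377 (equal sums), and for the response from 237 to 469 into 413 to 423 (equal sums). The causes were not tested. The 7 genes tested kept their directions between the genotypes under these scalings. Depth limits Mmp9 and Timp3, whose values rest on about 1.0 to 63.8 fragments a library.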

Other observations

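Mmp9 and Timp3 enter a fit with no filter on low values, over 16410 genes. There the log2(FPKM + 1) difference between the genotypes after LPS was -0.12 ± 0.04 for Mmp9 and -0.37 ± 0.04 for Timp3 (SE, limma adjusted p = 0.0402 and 2.86e-05), and the LPS difference in WT was 0.23 and 0.31 (limma adjusted p = 0.000797 and 7.78e-05), all well under 2-fold on this scale. The LPS response of Timp3 in Pim1-/- minus that in WT BMDMs was -0.33 ± 0.06 (SE, limma adjusted p = 0.00137), and that of Mmp9 was -0.02 (limma adjusted p = 0.806).

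Among the macrophage markers, Csf1r, which encodes the receptor for the growth factor of these cultures, was lower in Pim1-/- BMDMs, at 239 to 279 against 747 to 791 FPKM without LPS and at 167 to 194 against 443 to 455 FPKM with it. The log2 differences were -1.59 ± 0.06 and -1.32 ± 0.06 (SE, limma adjusted p = 2.3e-12 and 2.18e-11). Of 8 dendritic cell markers Clec10a, a lectin gene that macrophages also express, was at 36.1 to 40.4 FPKM in untreated WT and 3.03 to 3.4 FPKM in untreated Pim1-/- libraries, and at 17.4 to 18.3 and 1.40 to 1.79 FPKM after LPS. It made up most of the list's sum in each group except LPS-treated Pim1-/-, and the other 7 had means under 1 FPKM. Those 7 did not share a direction, with Siglech at means of 0.753 FPKM in untreated WT and 0.0535 in untreated Pim1-/- BMDMs, and Cd209a at 0.522 and 0.603 FPKM.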
